A study of Mus musculus with 18 samples.

Results

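Gas5, Snhg1, Snhg3, Snhg5, Snhg6, Snhg8, Snhg12 and Zfas1 are long noncoding RNAs whose introns carry small nucleolar RNAs (snoRNAs). The 8 genes were chosen by name, and not by a rule on their values, from the 36172 genes listed in the count file. Earlier results of these data were known when they were chosen. All 8 were found and all 8 passed the filter on low values, as did 14803 genes in all. Zfas1 is listed under the older symbol 1500012F01Rik, with gene identifier 68949, and the file types it as protein-coding.

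A snoRNA guides the ribose methylation or pseudouridylation of ribosomal RNA, and most are cut from the introns of a host transcript. The spliced exons of the host are left over. In these noncoding hosts they leave the nucleus, are bound by ribosomes at short open reading frames, and are largely removed by nonsense-mediated decay, the pathway that destroys transcripts whose translation stops early. Their transcripts are listed as starting, as those of ribosomal proteins do, with a cytosine followed by a run of pyrimidines. That start is the 5' terminal oligopyrimidine (TOP) motif, and its match to the annotated starts is given below. Through the motif the mTOR pathway and the binding protein Larp1 control how many ribosomes load on TOP transcripts.

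Translating ribosome affinity purification (TRAP) was followed by RNAseq in Cx3cr1-cre/ERT2+; NuTRAP+ mice of both sexes, about 3 months old. Every animal, control or not, carried the tamoxifen-inducible Cre under the Cx3cr1 promoter and the NuTRAP reporter, and every animal received tamoxifen. Recombined cells then carry an EGFP-tagged ribosomal protein; Cx3cr1 marks microglia but also other cells such as macrophages at the brain borders. At 3 to 4 weeks after tamoxifen the animals were injected intraperitoneally with 5 mg/kg lipopolysaccharide (LPS), a bacterial membrane component, or with PBS, and a lysate of half-brain was prepared 24 h later. The lysate was cleared by centrifugation. RNA was taken from a part of the supernatant (input) and from ribosomes pulled down from the rest with anti-GFP (positive fraction). The input was sequenced from 4 PBS animals (Input PBS) and 4 LPS animals (Input LPS) and the positive fraction from 4 PBS animals (Positive PBS) and 5 LPS animals (Positive LPS), 9 animals in all, 6 female and 3 male. Libraries are named by group and animal number. The males were animals 272 and 273 (PBS) and animal 267 (LPS), so sex was not balanced between treatments.

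The 17 libraries used held between 22968939 and 35123345 counts each. The Input LPS library of animal 271, with 1252 counts, was left out. All 10 microglia markers were called higher in the positive fraction than in input in both treatments, with median log2 fold changes of 4.15 with PBS and 4.03 with LPS. Each marker of the 8 cell types looked at had a count in at least 1 library of every group. A pair of positive libraries stood apart in nuclear RNA. The summed normalised count of 7 nuclear long noncoding RNAs such as Meg3 and Malat1 was 112182 in Positive PBS 268 against 49657 to 57448 in the other Positive PBS libraries. It was 145160 in Positive LPS 266 against 58297 to 85513 in the other Positive LPS libraries. The number of the 8 snoRNA hosts called in each comparison was the same with and without these libraries together, an alternative chosen after seeing the data.

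The sequence around the annotated start of each transcript is shown because the TOP motif lies there. RefSeq start sites on GRCm38.p6, the mm10 build of the files, were found for 7 of the 8 genes, all but Snhg6. Each line gives the strand of the gene, 5' to 3', with 30 bases before the annotated start and 30 bases from it. Capitals mark the longest pyrimidine run near the start.
Gas5 (chr1:161035136-161035195, plus strand): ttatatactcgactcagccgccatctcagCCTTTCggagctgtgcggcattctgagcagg
Snhg12 (chr4:132308648-132308707, plus strand): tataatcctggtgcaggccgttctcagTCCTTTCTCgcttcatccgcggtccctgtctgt
Snhg8 (chr3:123508307-123508366, minus strand): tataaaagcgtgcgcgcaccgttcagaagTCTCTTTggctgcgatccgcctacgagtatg
Snhg1 (chr19:8723457-8723516, plus strand): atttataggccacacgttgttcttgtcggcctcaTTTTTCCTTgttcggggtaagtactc
Snhg5 (chr9:88522868-88522927, minus strand): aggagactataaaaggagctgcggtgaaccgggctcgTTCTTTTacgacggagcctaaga
Snhg3 (chr4:132353657-132353716, minus strand): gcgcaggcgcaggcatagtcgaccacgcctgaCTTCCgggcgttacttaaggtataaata
Zfas1 (chr2:167062904-167062963, plus strand): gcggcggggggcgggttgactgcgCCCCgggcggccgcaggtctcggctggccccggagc

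In Gas5 the run began at the base before the annotated start, in Snhg8 likewise, and in Snhg12 it began 3 bases before it. In Snhg1 and Snhg5 the run lay just inside the annotated transcript. With a further start listed for Gas5, RefSeq gave 8 starts for these genes. A cytosine followed by at least 4 pyrimidines, beginning within 5 bases of the start on the strand of the gene, was found at 4 of the 8 starts (50%), against 18.3% of all 32851 annotated starts. The share was 54.5% among 44 starts of TOP mRNAs with no listed snoRNA host role, mainly ribosomal proteins, 33.3% among 18 starts of coding TOP genes that host snoRNAs, and 30.8% among 13 starts of other noncoding snoRNA hosts, all but the first on few starts. The 4 starts with the motif were those of Gas5 (the one shown), Snhg3, Snhg8 and Snhg12. The annotated starts of Snhg1, Snhg5 and Zfas1 had no such match, and Snhg6 had no start to look at. The letters TATAA stood within the 50 bases before the start, on the strand of the gene, at 3 of the 8 starts (Snhg5, Snhg8 and Snhg12), against 4.93% of all starts, and on the opposite strand at 2 of the 8 starts, against 2.8%. A match of letters is a description and no measured start, and annotated starts can be off by bases.

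Most annotated transcripts of these genes are short. In the GENCODE vM21 models matched to RefSeq, Snhg6 had 400 bases in 4 exons, Snhg3 437 bases in 3, Snhg1 605 bases in 10, Snhg12 606 bases in 5, Zfas1 738 bases in 5, Snhg8 776 bases in 1 and Snhg5 1004 bases in 5. Gas5 had 346 bases in 8 exons in one model and 2556 bases with retained introns in another, so no level per length is given for it. The 1-exon model of Snhg8 is also typed as a retained intron. Its length and reading frame may not be those of a spliced transcript. The longest open reading frame that opens with ATG ran from 35 codons in Snhg8 to 79 in Zfas1 among the genes with a single model. The annotation places between 1 and 9 snoRNA genes inside each gene: 9 in Gas5, 8 in Snhg1, 4 in Snhg12, 3 in Zfas1, 2 each in Snhg3 and Snhg5, and 1 each in Snhg6 and Snhg8. The libraries were made from polyadenylated RNA, and the snoRNAs listed in the file for any host summed to at most 30.6 normalised counts in a library. The file lists only some of the snoRNAs: 1 of 9 in Gas5, 1 of 8 in Snhg1, 1 of 3 in Zfas1 and 0 of 2 in Snhg5. The values below are taken as those of the host transcripts. Whether reads of unlisted snoRNAs or of retained introns add to them was not tested.

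Levels are given as normalised counts, which are estimated counts scaled by the size factor of their library. The lowest value of any of the 8 genes in any library was 70.1, for Snhg3 in Positive PBS 506. Per kilobase of transcript, the levels in Input PBS ran from Zfas1 (999 ± 186 normalised counts per kb, SD, n = 4) over Snhg12 (699 ± 73.3), Snhg8 (669 ± 78.5), Snhg6 (581 ± 112), Snhg3 (377 ± 35.7) and Snhg1 (262 ± 44.2) to Snhg5 (199 ± 14.1). Snhg12, Snhg8 and Snhg6 each lay within 1 SD of their neighbour in that order. The levels of Snhg8 per kb, here and in Positive LPS, rest on its 1-exon model, typed as a retained intron. In Positive LPS the order of levels per kb was Zfas1 (891 ± 118, n = 5), Snhg3 (623 ± 190), Snhg12 (585 ± 60.5), Snhg6 (578 ± 156), Snhg1 (523 ± 127), Snhg8 (369 ± 78.2) and Snhg5 (295 ± 95), and the levels from Snhg3 to Snhg1 lay within 1 SD of their neighbours. Snhg3 thus stood among the lowest of these genes per length in Positive PBS (195 ± 42.8, n = 4) and next to Zfas1 in Positive LPS.

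LPS against PBS in the positive fraction asked how the hosts in the pull-down changed. The pull-down also held RNA of cells outside the Cre line. In PBS animals the neuron markers had a median of -0.09 log2 units against input. Values of the positive fraction are therefore not those of ribosomes of Cx3cr1 cells alone. Of the 8 genes, 7 rose with LPS, all but Snhg8, by 1.39-fold (Snhg12) to 3.2-fold (Snhg3). Calls here are those of edgeR's quasi-likelihood test with an adjusted p (Benjamini-Hochberg, over all tested genes) below 0.05 and a fitted change larger than 0.322 log2 units. By that rule 19.0% of all tested genes were called higher and 14.9% lower, and none of the 8 was lower. In 6 of the 8 genes every Positive LPS library lay above every Positive PBS library, as it did in 17.1% of tested genes. The median log2 fold change of the 8 genes was 0.86, against 0.01 over all tested genes. In such bulk fractions, a change in the number of cells and a change in the RNA per cell cannot be told apart.

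**Figure D1:**
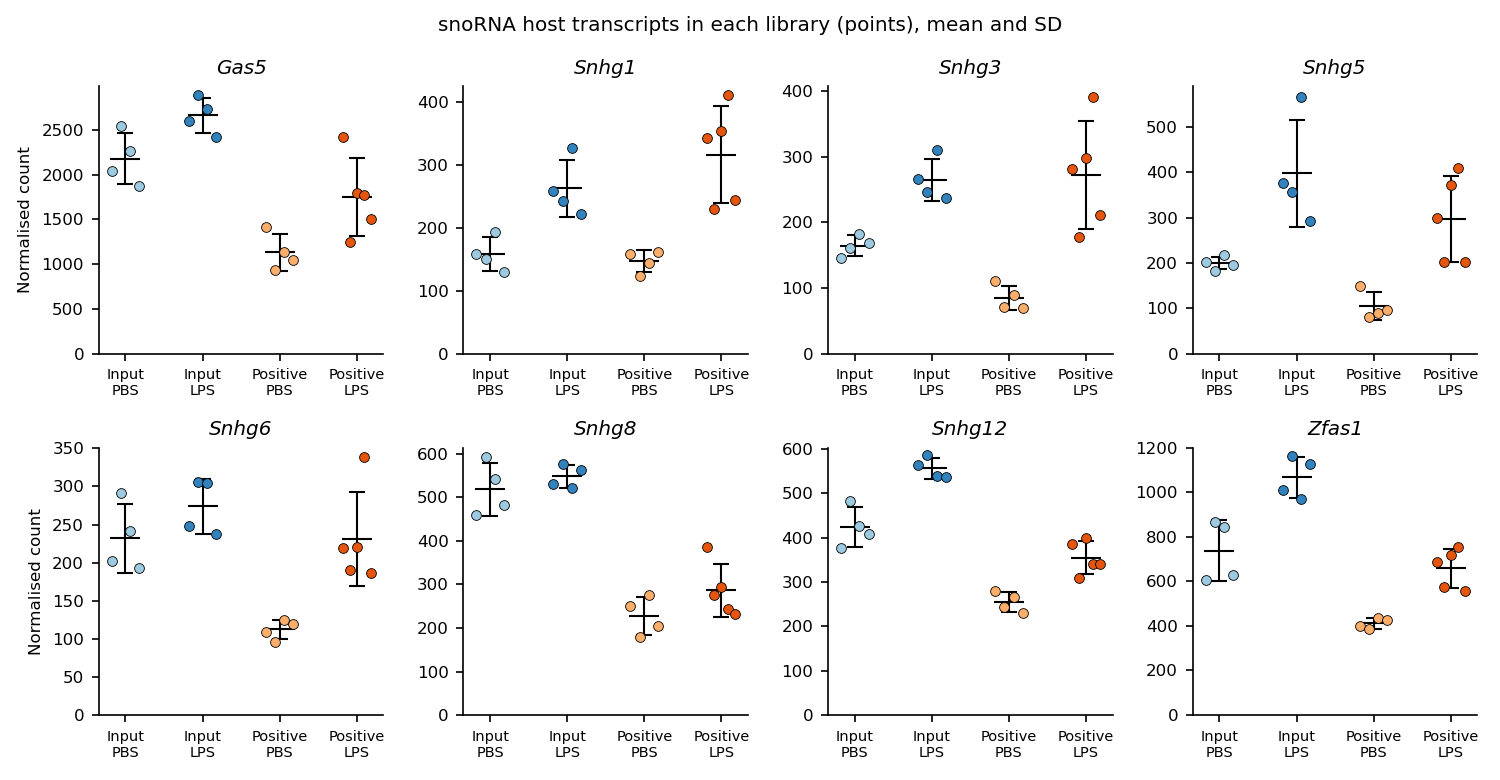
Normalised count (vertical axes, linear, from 0) of each snoRNA host gene in the 17 libraries, by group of fraction and treatment; points are libraries, and bars the mean and SD. The lowest mean of each panel is that of Positive PBS, which in Snhg1 lies near Input PBS (147 and 158).

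LPS against PBS in input asked the same of the cleared lysate, which holds RNA of the brain cells together. Here 5 of the 8 genes rose, namely Snhg1, Snhg3, Snhg5, Snhg12 and Zfas1, by 1.31-fold (Snhg12) to 1.99-fold (Snhg5), where 7.16% of all tested genes were called higher; none fell, against 5.26% called lower. The same 5 genes had every Input LPS library above every Input PBS library, as 12.6% of tested genes did. The median log2 fold change was 0.46, against 0.00 over all tested genes. Gas5, Snhg6 and Snhg8 did not pass the test. The count of 5 fell to 3 without Input PBS 268, without Input PBS 506 or without Input LPS 270. It fell to 1 in female animals alone or without animals 506 and 507. With sex as a covariate it was 4, as Snhg3 was no longer called.

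Positive fraction against input asked whether the hosts were more or less abundant in the pull-down than in the cleared lysate. In PBS animals 7 of the 8 genes were lower in the positive fraction, all but Snhg1, and none was called higher, where 18.8% of all tested genes were called lower and 21.0% higher. In female animals only the count was 4, and Snhg3 (-0.80, adjusted p = 0.0724), Snhg5 (-0.69, 0.195) and Snhg6 (-0.79, 0.0509) were no longer called. In all animals the levels of the 7 were between 0.437 times (Snhg8) and 0.6 times (Snhg12) those of input. These genes had every Positive PBS library below every Input PBS library, as 20.5% of tested genes did. In LPS animals 4 of the 8 were called lower (Gas5, Snhg8, Snhg12 and Zfas1), where 25.8% of all tested genes were, and none higher, where 27.6% were. Of the 8 genes, 3 had no overlap with input, against 20.1% of tested genes. The median log2 fold change of the 8 genes was -0.94 with PBS and -0.51 with LPS, against -0.00 and -0.03 over all tested genes. With the animal as a block, since each animal gave both fractions, 6 of the 8 were called lower in LPS animals, with Snhg5 and Snhg6 added. That fit rests on the 4 LPS animals with both libraries, so Positive LPS 271 does not enter it, and the same 6 were called without that library and no block.

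**Figure D2:**
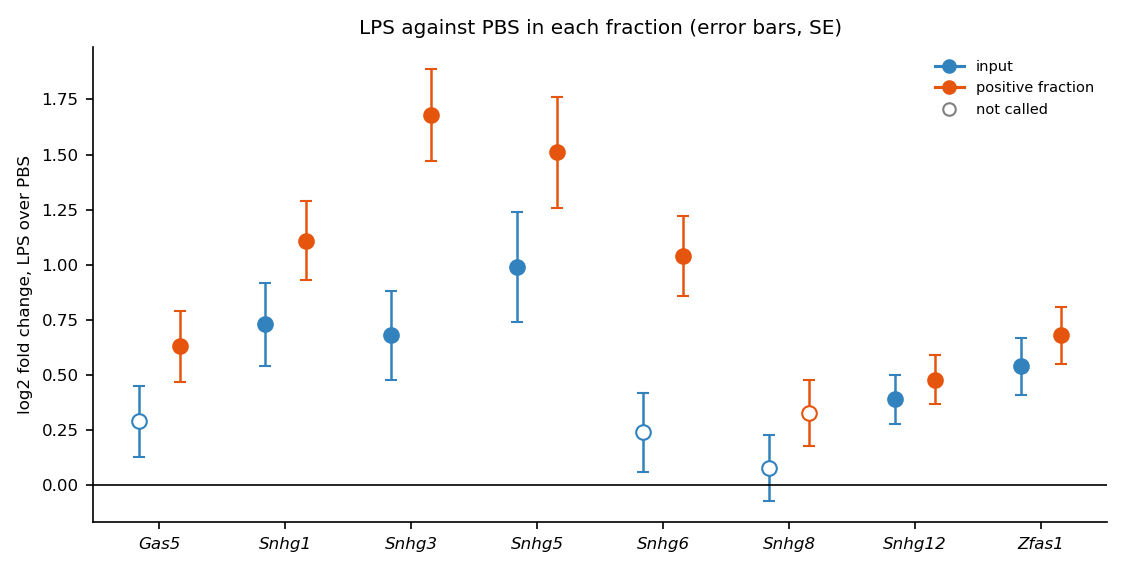
Log2 fold change of LPS over PBS (vertical axis) of each snoRNA host in input and in the positive fraction, with the SE of the edgeR fit; filled points passed the test. Every point of the positive fraction lies above that of input, by between 0.09 (Snhg12) and 0.99 (Snhg3), a difference that passed its own test in Snhg3.

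The difference between both LPS effects was tested itself, as the interaction of fraction and treatment. It was larger in the positive fraction in 1 of the 8 genes, Snhg3, and smaller in none, where 5.46% of all tested genes were called larger and 1.42% smaller. The 8 estimates were all above 0, though that of Zfas1 was -0.02 in female animals only, with a median of 0.36 log2 units against -0.02 over all tested genes. Both LPS effects and both fraction comparisons share libraries, so these directions are not independent of the values above.

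The hosts of snoRNAs with C/D boxes, which guide ribose methylation, include Gas5, Snhg1, Snhg5, Snhg6 and Zfas1. Gas5, named for its accumulation in growth-arrested cells, was the most abundant in counts. Its normalised count was 2038, 2543, 2263 and 1878 in Input PBS (animals 268, 272, 273 and 506) and 2598, 2893, 2735 and 2422 in Input LPS (animals 266, 267, 270 and 507). It was 1415, 931, 1139 and 1041 in Positive PBS (the same animals as in Input PBS) and 2424, 1252, 1794, 1775 and 1504 in Positive LPS (animals 266, 267, 270, 271 and 507). Both input groups overlapped, and so did both positive groups, where Positive LPS 267 lay below Positive PBS 268. The highest library of each positive group, animals 268 and 266, was also the one with the most nuclear RNA. In the positive fraction its log2 fold change with LPS was 0.63 (SE 0.16, adjusted p = 0.00357), and the value in input was 0.29 (SE 0.16, adjusted p = 0.257), both by edgeR. Without both libraries it was 0.61 (SE 0.13, adjusted p = 0.00154) in the positive fraction. Gas5 was lower in the positive fraction in PBS (-0.95, SE 0.16, adjusted p = 0.000123) and in LPS animals (-0.61, SE 0.15, adjusted p = 0.00221), and in each of the 8 animals with both libraries.

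Snhg1 holds the snoRNA Snord22 among others and was the one gene that did not pass the test between fractions in either treatment. In the same order of animals, its normalised count was 159, 151, 194 and 130 in Input PBS and 259, 243, 327 and 222 in Input LPS. It was 158, 124, 144 and 162 in Positive PBS and 343, 230, 354, 411 and 244 in Positive LPS. LPS libraries lay above all PBS libraries of their fraction, and the fractions overlapped. With LPS it rose in the positive fraction by 1.11 log2 units (SE 0.18, adjusted p = 0.000109) and by 0.73 in input (SE 0.19, adjusted p = 0.0134). Without Input LPS 270, its highest input library, the input value was 0.61 and no longer passed (adjusted p = 0.0545). The difference between fractions was -0.11 in PBS (95% interval -0.49 to 0.26) and 0.27 in LPS animals (-0.08 to 0.61), on the log2 scale. Snhg1 and Slc3a2, which encodes the heavy chain of amino acid transporters, start 118 bases apart on opposite strands. Slc3a2 rose with LPS by 0.332 log2 units in the positive fraction (edgeR adjusted p = 0.00685). Its input value of 0.321 (adjusted p = 0.0297) was just under the 0.322 needed for a call. It was higher in the positive fraction than in input in PBS animals (0.709).

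Snhg5 is the host of Snord50a and Snord50b. Its normalised count was 203, 183, 217 and 196 in Input PBS and 376, 356, 566 and 292 in Input LPS. It was 150, 80.9, 90.1 and 95.5 in Positive PBS and 299, 201, 371, 410 and 202 in Positive LPS. In neither fraction did the treatments overlap, and Input LPS 270 was far above the other libraries. In the positive fraction it rose by 1.51 log2 units (SE 0.25, adjusted p = 0.000109) and by 0.99 in input (SE 0.25, adjusted p = 0.0104), the largest input change of the 8 genes. It was lower in the positive fraction in PBS animals (-0.94, SE 0.26, adjusted p = 0.00639). In LPS animals the value was -0.42 (SE 0.23, adjusted p = 0.119), and it was -0.57 without Positive LPS 271 and with the animal as a block (adjusted p = 0.00177 with the block), where it was called.

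Snhg6 is the host of Snord87. Its normalised count was 202, 292, 241 and 193 in Input PBS and 248, 306, 304 and 238 in Input LPS. It was 109, 96.1, 125 and 120 in Positive PBS and 219, 191, 220, 339 and 187 in Positive LPS. The input groups overlapped, whereas every Positive LPS library lay above every Positive PBS library, with animal 271 the highest. In the positive fraction it rose by 1.04 log2 units (SE 0.18, adjusted p = 0.000221), and the input value was 0.24 (SE 0.18, adjusted p = 0.429). The difference between these was 0.80 (SE 0.26, adjusted p = 0.0741) and did not pass the test, though it passed in DESeq2, in the fit of all 18 libraries and on the deposited log2 values. Snhg6 was lower in the positive fraction in PBS animals (-1.05, SE 0.19, adjusted p = 0.000233). In LPS animals the value was -0.25 (SE 0.17, adjusted p = 0.232), and it was called at -0.42 without Positive LPS 271, and at -0.42 with the animal as a block (adjusted p = 0.019).

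Zfas1 is the host of Snord12 and of further snoRNAs. Its normalised count was 608, 868, 843 and 629 in Input PBS and 1010, 1162, 970 and 1127 in Input LPS. It was 399, 385, 436 and 425 in Positive PBS and 689, 575, 717, 752 and 556 in Positive LPS. The treatments did not overlap in either fraction, nor the fractions in either treatment. In the positive fraction it rose by 0.68 log2 units (SE 0.13, adjusted p = 0.000328) and by 0.54 in input (SE 0.13, adjusted p = 0.00843), and the difference between these was 0.14 (95% interval -0.21 to 0.49). It was lower in the positive fraction by -0.84 in PBS and -0.70 in LPS animals on the log2 scale (SE 0.13 and 0.12). Its span overlaps that of Znfx1, an antiviral RNA-binding helicase on the opposite strand, by 82 bases at the 5' end of both. Znfx1 rose with LPS by 0.502 in the positive fraction and 0.649 in input (edgeR adjusted p = 0.00107 and 0.000548), but its positive over input values, 0.179 and 0.0318, did not pass. Reads were aligned by strand; whether the counting of genes used strand is not given in the sources used here, so reads in the shared bases are uncertain.

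The hosts of H/ACA snoRNAs, which guide pseudouridylation, are Snhg3, with Snora73a and Snora73b, and Snhg8, with Snora24. These hosts were the most and the least changed by LPS in the positive fraction. The normalised count of Snhg3 was 146, 161, 183 and 169 in Input PBS and 266, 246, 310 and 237 in Input LPS. It was 110, 71.4, 88.8 and 70.1 in Positive PBS and 282, 178, 298, 392 and 212 in Positive LPS. The positive libraries of PBS animals were the lowest of all, with no overlap with any other group, and both LPS groups overlapped. In the positive fraction Snhg3 rose by 1.68 log2 units (SE 0.21, adjusted p = 5.42e-06) and by 0.68 in input (SE 0.20, adjusted p = 0.0314). The input call was lost without any one of Input PBS 268, 272 or 506 or Input LPS 266 or 270, with values from 0.60 to 0.70. By edgeR it was also lost with sex as a covariate (0.63, adjusted p = 0.05). The same held in female animals only (0.78, adjusted p = 0.139) and without animals 506 and 507 (0.75, adjusted p = 0.0869).

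In the 4 PBS animals, the positive over input ratio of Snhg3 was 0.754, 0.443, 0.485 and 0.416 (animals 268, 272, 273 and 506). In the 4 LPS animals with both libraries it was 1.06, 0.723, 0.962 and 0.895 (animals 266, 267, 270 and 507). The highest PBS ratio lay above the lowest LPS ratio. On the log2 scale the fitted difference from input was -0.95 (SE 0.22, adjusted p = 0.00149) in PBS and 0.04 (95% interval -0.33 to 0.42) in LPS animals, where the sign turned under some scalings. The LPS effect was larger in the positive fraction by 0.99 log2 units (SE 0.29, adjusted p = 0.0442). That value ranged from 0.83 to 1.14 with 1 library left out, and the call was lost in 12 of those 17 fits, all but those without Input PBS 268, Input LPS 270, Positive PBS 268, Positive LPS 267 or Positive LPS 507. It passed with the animal as a block (0.81, adjusted p = 0.023).

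**Figure D3:**
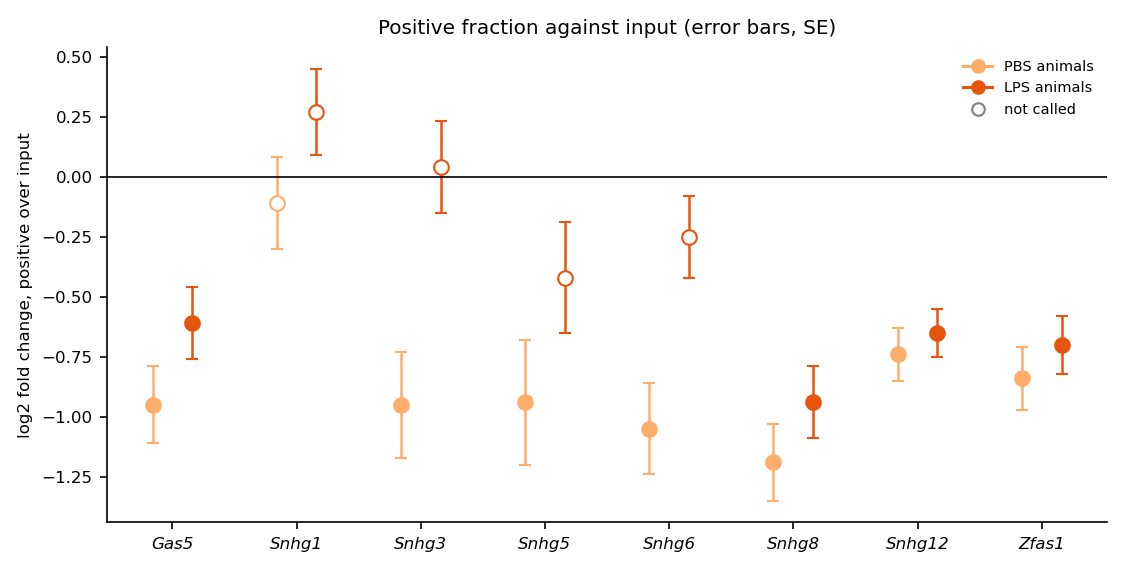
Log2 fold change of the positive fraction over input (vertical axis) of each snoRNA host in PBS and in LPS animals, with the SE of the edgeR fit; filled points passed the test. In PBS animals 7 genes lie between -1.19 and -0.74 and Snhg1 at -0.11, and in LPS animals the values run from -0.94 (Snhg8) to 0.27 (Snhg1).

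The normalised count of Snhg8 was 459, 594, 542 and 482 in Input PBS and 531, 577, 521 and 564 in Input LPS. It was 250, 179, 276 and 205 in Positive PBS and 386, 275, 295, 244 and 233 in Positive LPS. The treatments overlapped in both fractions, and the fractions in neither treatment. The log2 fold change with LPS was 0.33 in the positive fraction (95% interval 0.04 to 0.63, adjusted p = 0.086) and 0.08 in input (-0.22 to 0.38, adjusted p = 0.782). The positive fraction value was called at 0.44 without Positive PBS 273 and at 0.40 without Positive LPS 507. Snhg8 had the lowest positive over input values of the 8 genes, with -1.19 in PBS (SE 0.16, adjusted p = 6.89e-06) and -0.94 in LPS animals (SE 0.15, adjusted p = 2.52e-05).

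Snhg12 holds snoRNAs of both kinds, Snord99 and Snora16a, Snora44 and Snora61. Its normalised count was 377, 483, 427 and 408 in Input PBS and 563, 585, 539 and 536 in Input LPS. It was 280, 243, 265 and 229 in Positive PBS and 386, 309, 398, 340 and 340 in Positive LPS. The treatments did not overlap in either fraction, nor the fractions in either treatment, and the SD was at most 10.5% of the mean in every group. In the positive fraction it rose by 0.48 log2 units (SE 0.11, adjusted p = 0.00146) and by 0.39 in input (SE 0.11, adjusted p = 0.0199), a difference of 0.09 (95% interval -0.21 to 0.38). The input call was lost without any one of Input PBS 268 (0.34), Input PBS 506 (0.37) or Input LPS 267 (0.36). Snhg12 was lower in the positive fraction by -0.74 in PBS and -0.65 in LPS animals on the log2 scale (SE 0.11 and 0.10).

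Coding TOP transcripts gave the pattern to set these values against, since they are listed as TOP transcripts but code for protein. Of 25 protein-coding TOP genes that also host snoRNAs, such as Eef2, Rpl4, Rpl3 and Tpt1, 23 rose with LPS in the positive fraction, all but Eef2 (0.16) and Tpt1 (0.18), and none was called in input. Of 50 other TOP mRNAs, 48 rose on tagged ribosomes and 3 in input. The median log2 fold changes in the positive fraction were 0.61 and 0.65, of a size with the 0.86 of the noncoding hosts. In input they were -0.01 and 0.03, against 0.46 for the noncoding hosts. Rpl4, a large-subunit protein, rose by 0.50 in the positive fraction (SE 0.07, adjusted p = 2.18e-05), with an input value of 0.06 (SE 0.07, adjusted p = 0.623). The elongation factor Eef1a1 rose by 0.45 in the positive fraction (SE 0.07, adjusted p = 4.11e-05), with an input value of 0.02 (SE 0.07, adjusted p = 0.862). Pabpc1, the poly(A)-binding protein, rose in both, by 0.49 and 0.33 on the log2 scale (edgeR adjusted p = 3.08e-05 and 0.00507).

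Against input, the coding TOP transcripts were called higher more than lower, and the noncoding hosts lower or not at all. In PBS animals 4 of the 25 coding hosts were higher in the positive fraction than in input and none lower, and of the 50 other TOP mRNAs 9 were higher and 1 lower (Rps21, -0.48, named after its value was seen), with a median of 0.11 log2 units in both lists. In LPS animals 25 of the 25 and 45 of the 50 were higher, with medians of 0.65 and 0.76. Over all tested genes 21.0% were called higher with PBS and 27.6% with LPS. The counts of both TOP lists were below that share with PBS and above it with LPS. None of the 8 noncoding hosts was called higher in either treatment, with medians of -0.94 and -0.51, though Snhg1 in both treatments and Snhg3 in LPS animals had values near input. The interaction was called in 22 of the 25 and 40 of the 50, all toward the positive fraction, against 1 of the 8. These lists were described by their counts and medians and not tested against each other.

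**Figure D4:**
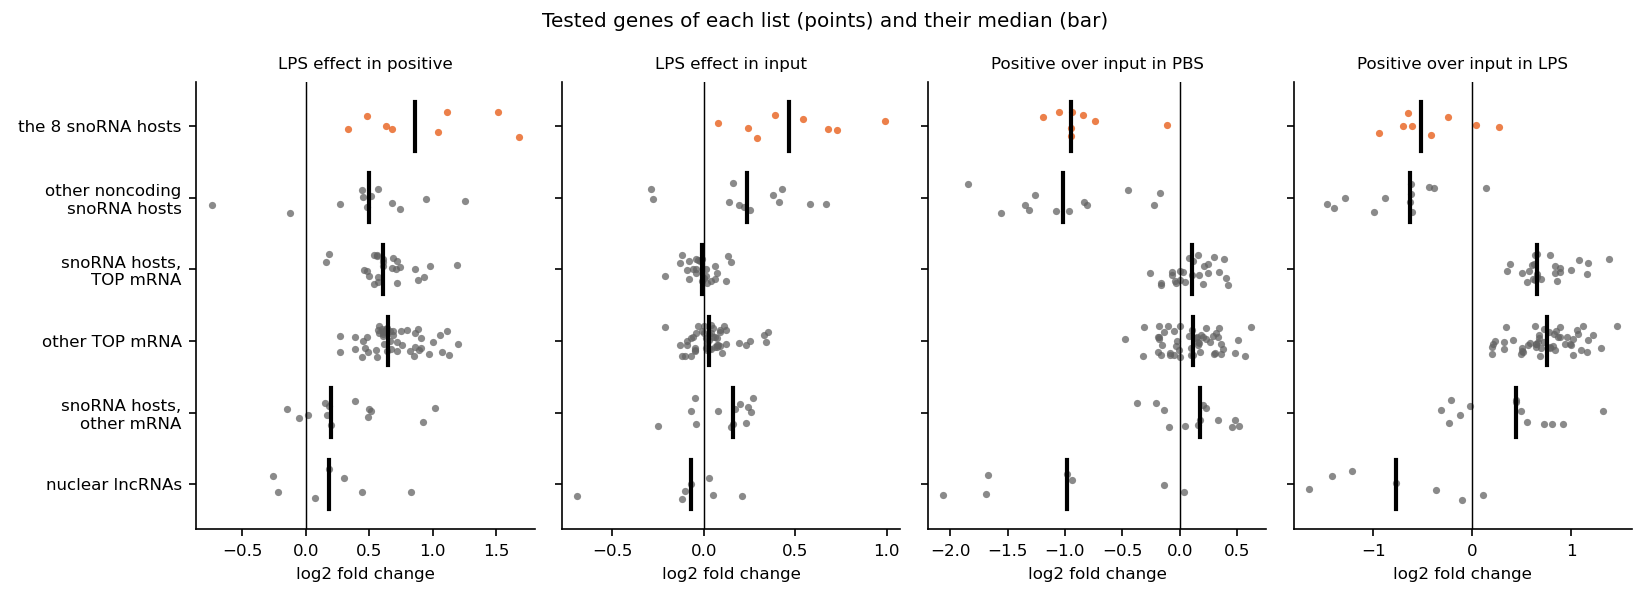
Log2 fold changes (horizontal axes, a scale for each panel) of the tested genes of 6 lists in 4 comparisons; points are genes, spread vertically at random within a list, and bars are medians. In the third panel the 8 noncoding snoRNA hosts have a median of -0.94, near that of the nuclear long noncoding RNAs (-0.98), and both lists of TOP mRNAs one of 0.11.

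Other noncoding snoRNA hosts were measured from a list of 14 genes, of which 12 passed the filter. In the positive fraction 5 rose with LPS and 1 fell, and in input 1 rose, with medians of 0.49 and 0.24 on the log2 scale. In PBS animals 8 of the 12 were lower in the positive fraction than in input and none higher, with a median of -1.02, and in LPS animals 7 were lower, with a median of -0.63. Snhg11, an abundant neuronal transcript, was lower by -1.84 in PBS animals (SE 0.39, adjusted p = 0.000959), and its LPS values were 0.51 in the positive fraction (adjusted p = 0.279) and 0.14 in input (adjusted p = 0.849). Rian, from an imprinted cluster rich in snoRNAs, was lower by -1.56 in PBS animals (SE 0.22, adjusted p = 1.28e-05), with LPS values of -0.12 and -0.28 that did not pass. Of 13 protein-coding hosts without a listed TOP motif, such as Hspa8 and Ncl, 6 rose with LPS in the positive fraction and none was called in input, with medians of 0.20 and 0.16.

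Long noncoding RNAs that stay in the nucleus were a further measure of what the pull-down holds. Of the 7 tested, 4 were lower in the positive fraction in PBS animals and 3 in LPS animals, with medians of -0.98 and -0.77, and none was called for LPS in either fraction. Meg3, the most abundant of them, was lower by -1.67 in PBS animals (SE 0.22, adjusted p = 4.87e-06). Markers of cell types outside the Cre line were depleted to different degrees. The oligodendrocyte markers had a median of -1.99 with PBS and -1.73 with LPS, and 6 of 6 were lower in both. The astrocyte markers had medians of -0.24 and -0.36, and 2 of 7 were lower with PBS and 4 with LPS. The astrocyte marker Slc1a2 was higher in both (0.56 and 0.37 on the log2 scale). The neuron markers had medians of -0.09 and -0.24, and 0 of 7 were lower with PBS and 1 with LPS. The medians of the 8 hosts, -0.94 and -0.51, were above that of the oligodendrocyte markers and below those of the astrocyte, neuron and endothelial markers. How much of the host RNA in the positive fraction came from untagged cells was not tested.

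Markers of other cells also moved with LPS in input. The oligodendrocyte markers summed to between 88425 and 139804 normalised counts in Input PBS and between 56749 and 82369 in Input LPS, and 5 of 6 fell. The 8 neutrophil markers, 6 of them tested, summed to between 219 and 536 in Input PBS and between 636 and 1552 in Input LPS, and in the positive fraction to between 140 and 357 with PBS and between 440 and 1055 with LPS. The microglia markers summed to between 10021 and 12799 in Input PBS and between 9743 and 14255 in Input LPS, ranges that overlap. Their part in the rise of the snoRNA hosts was not tested.

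The machinery of snoRNA particles, host decay and TOP control was measured alongside. By the same calling rule, LPS raised 19.0% of all tested genes in the pull-down and 7.16% in input. The lists below were set beside these shares and not tested against them. Of 8 core proteins of snoRNA particles, 5 rose with LPS in the positive fraction and none was called in input, with medians of 0.47 and 0.03. Fbl, the methyltransferase of C/D particles, rose by 1.01 on the log2 scale (SE 0.09, adjusted p = 1.45e-07), with an input value of 0.27 (SE 0.10, adjusted p = 0.072), and Nop56 rose by 0.50 (SE 0.10, adjusted p = 0.000573). Of 10 factors of nonsense-mediated decay, 2 rose in the positive fraction, a share close to that of all tested genes, and none was called in input. Smg5 was among the 2 (0.39, SE 0.09, adjusted p = 0.00193). The helicase Upf1 had a value of 0.15 (SE 0.06, adjusted p = 0.069). Of 14 genes of the mTOR pathway and TOP-binding proteins, 2 rose in each fraction. That was below the share of all tested genes in the pull-down and above it in input. Eif4ebp1, a target of mTOR that represses translation, rose in both, by 1.80 log2 units in the positive fraction (SE 0.15, adjusted p = 3.19e-08) and 0.90 in input (SE 0.16, adjusted p = 0.000747). The other gene that rose was Cnbp in the positive fraction (0.42, adjusted p = 0.0335) and Tsc1 in input (0.36, adjusted p = 0.0258); Eif4ebp1 and Tsc1 were named after their values were seen. Larp1, which binds the TOP motif, had LPS values of 0.10 in the positive fraction (adjusted p = 0.278) and -0.11 in input (adjusted p = 0.392).

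The profiles of the 8 genes over the 17 libraries were alike to different degrees. Over the 28 pairs the Pearson correlation of log2(normalised count + 0.5) ran from 0.09 (Snhg1 and Snhg8) to 0.96 (Snhg3 and Snhg5, and Snhg12 and Zfas1), with a median of 0.82. The libraries share groups, so the correlations mostly reflect the group means given above. Among other tested genes, those most like the mean standardised profile of the 8 were Mir3091 (r = 0.966), Pdk4 (0.953), Rad52 (0.948), 1810032O08Rik (0.939), Mfsd7b (0.935), Cnn3 (0.935), Tfrc (0.931), Carhsp1 (0.923), Apod (0.923) and Tmem18 (0.921). 1810032O08Rik is the file's name for Snhg16, itself a noncoding snoRNA host. Pdk4, a kinase that limits pyruvate entry to the citric acid cycle, had log2 values of 1.12 and 0.85 with LPS in the positive fraction and input, and of -1.14 in positive over input in PBS animals.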

How the data were processed

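RNAseq counts of input and positive TRAP fractions were taken from the deposited table. The authors trimmed reads, aligned them by strand to mm10 and deposited estimated counts per RefSeq gene, of which 81.2% of the nonzero values were not whole. The authors also deposited log2 values normalised with DESeq, used as an alternative only. Estimated counts were rounded and fitted with edgeR 4.0.16 (quasi-likelihood, R 4.3.3) in 17 libraries, with 1 mean per group and median-of-ratios size factors (0.766 to 1.32). Genes were tested (14803) where at least 1 group had over 20 normalised counts in all of its libraries, and p-values were adjusted over all of them. Fold changes are fitted log2 values, and 95% intervals are normal intervals from the SE. Alternatives used DESeq2 1.42.0 and limma 3.58.1.

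Fractions of the same animal deviated together from their group means (r from 0.142 to 0.506 over 8 animals). The animal was therefore taken as a block in alternative fits. For LPS against PBS within a fraction these were limma fits with a correlation within animals. For the other comparisons they were edgeR fits with a term for each animal. Genes, lists and comparisons were chosen with earlier results of these data known. All 8 hosts are named, up to 4 genes of each list are named by highest mean count, genes within 2 kb of a host may be named, and the 10 genes most like the hosts' profile. Lists other than the hosts were written from general knowledge. The SE and its intervals hold the spread between animals; the depth (3 counts are 8.54e-06% to 1.31e-05% of a library) covers counting error only. Start sequences and gene positions come from RefSeq on GRCm38.p6.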

Additional observations from a re-analysis of the deposited data

Results flagged for a closer look

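Snhg6 in Positive LPS 271 had a normalised count of 339, far from the 187 to 220 of the other Positive LPS libraries. The gap to its neighbour took 0.785 of the range of the group. Of 32 groups of values looked at (8 genes in 4 groups) this was the only one that stood out by that measure, and chance gives about 1 in 20. Without that library Snhg6 still passed the test for LPS in the positive fraction, at 0.87 on the log2 scale.

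The LPS effect on Snhg3 was larger in the positive fraction than in input by 0.99 on the log2 scale, by the interaction term of the edgeR fit (adjusted p = 0.0442). The call was lost in 12 of 17 fits with 1 library left out, in female animals only, without animals 506 and 507, with library totals as scaling and without the filter.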

How the results depend on the processing

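The count of hosts called for LPS in the positive fraction stayed between 7 and 8 under all alternatives, and that for positive over input in LPS animals between 4 and 6. The count for LPS in input was 1 in female animals only and 1 without animals 506 and 507. It was 4 with sex as a covariate, and between 3 and 5 with 1 library left out. The count for positive over input in PBS animals was 4 in female animals only. The count for the difference of the LPS effect was 0 with library totals as scaling, without the filter, in female animals only and without animals 506 and 507, was 2 with DESeq2, in the fit of all 18 libraries and on the deposited log2 values, and lay between 0 and 1 with 1 library left out. With the animal as a block the counts were 7, 5, 7, 6 and 1, for LPS in positive, LPS in input, positive over input with PBS, the same with LPS, and the difference. The counts for LPS within a fraction came from limma and the others from edgeR, so the former also differ from the main fit in method.

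Values near 0 that changed sign were not called in any fit. Positive over input of Snhg3 in LPS animals was -0.14 with library totals, -0.00 with limma, -0.06 with all 18 libraries, -0.15 with the replicate block, -0.11 with the deposited log2 values, and between -0.13 and 0.16 with 1 library left out. That of Snhg1 in PBS animals was 0.15 in female animals only, and between -0.20 and 0.00 with 1 library left out. The difference of the LPS effect of Zfas1 was -0.02 in female animals only. The causes were not tested, beyond the smaller number of samples in female animals only. Of 1232 values of single genes under an alternative, 1172 kept direction and side of the threshold. Scaling by library totals moved the median of all genes in positive over input to -0.12 with PBS and -0.20 with LPS, and the deposited log2 values to -0.13 and -0.14, where 7 hosts were still called lower with PBS.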
